A study of Drosophila melanogaster with 4 samples.

Results

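In the larval *Drosophila* brain libraries compared here, 43 genes were at least 2 times higher in both libraries labelled *white* RNAi than in either library labelled *orb2* RNAi. They were found among 17869 genes with FlyBase identifiers, of which 8689 had at least 1 CPM in both libraries labelled *white* RNAi and so could meet the rule. CPM is a gene's count scaled to a library total of 1 M counts. A gene was taken when its lower CPM in the libraries labelled *white* RNAi was at least 1 and at least 2 times its higher CPM in the libraries labelled *orb2* RNAi. The 43 genes were therefore chosen by the levels given below, which are a description and carry no test. They made up 0.495% of the 8689 genes, and 121 genes (1.34% of 9050) met the mirror rule of being at least 2 times higher in both libraries labelled *orb2* RNAi.

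Orb2 is a CPEB family protein that binds mRNAs and can raise or lower their poly(A) tail length, stability and translation. It acts in the brain and in the testis, and has a known part in long-term memory. The experiment asks which brain mRNAs change in level when *orb2* is depleted from the neuroblast lineage. The tested brains expressed a hairpin against *orb2* under *insc*-GAL4, a driver active in neuroblasts and their progeny, and the control brains expressed a hairpin against the eye pigment transporter gene *white* (*w*) under the same driver. Both groups therefore carry GAL4 and a hairpin, and cells outside the driver's lineage keep *orb2*. Brains came from wandering third-instar (WL3) larvae, each of the 2 replicates per group was a pool of 60 brains, and polyadenylated RNA was sequenced. As RNA from whole brains was measured, fewer cells of a type and less RNA per cell cannot be told apart.

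Several facts about the libraries bear on the 43 genes. Libraries are named by their labels, and each pair of values gives replicate 1 and then replicate 2. Library totals ran from 34.6 to 75.4 M counts, so 3 counts correspond to 0.0398 and 0.0537 CPM under the *orb2* RNAi label, and to 0.0488 and 0.0867 CPM under the *white* RNAi label. The target went against its label, since *orb2* had 106 and 54.9 CPM under the *orb2* RNAi label, against 17.4 and 14.5 CPM under the *white* RNAi label (log2 fold change 2.29, adjusted p = 1.00 by edgeR and 9.33e-05 by DESeq2). *CG43783*, which overlaps *orb2*, had 46.0 and 45.1 CPM under the *orb2* RNAi label, against 53.6 and 38.5 CPM under the *white* RNAi label. Whether the labels are right or *orb2* counts have a further source was not tested, and every direction given here is by label. The control target *w* had 122 and 96.1 CPM under the *orb2* RNAi label, against 113 and 175 CPM under the *white* RNAi label. Over 8524 genes with at least 1 CPM everywhere, the median absolute log2 difference between replicates was 0.167 under the *orb2* RNAi label and 0.483 under the *white* RNAi label. It was 0.191 between replicate 1 labelled *orb2* RNAi and replicate 1 labelled *white* RNAi, so replicate 2 labelled *white* RNAi stood apart from its own group more than the groups' first replicates did from each other. Markers of neurons (14 genes), neuroblasts (12) and glia (12) were detected in every library, and none of the 43 genes is in the marker lists of any tissue.

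Across all features, edgeR's quasi-likelihood test called 0 of 13082 lower and 0 higher in the libraries labelled *orb2* RNAi, and so called 0 of the 43 genes (background 0%). At an unadjusted p under 0.05 it held 117 features lower (0.894%) and 481 higher (3.68%). DESeq2 called 40 lower (0.286% of 13997) and 89 higher (0.636%), and 15 of its 40 lower calls were among the 43 genes, whose selection used the same contrast. By edgeR's fit the 43 log2 fold changes, *orb2* RNAi over *white* RNAi, ran from -9.12 to -1.44 with a median of -2.37, beside a median of 0.02 over all features tested. The size of the group rests on all 4 libraries, since the rule was met by 110 genes without replicate 1 and 117 without replicate 2 labelled *orb2* RNAi, and by 626 without replicate 1 and 246 without replicate 2 labelled *white* RNAi (leaving out a library can only widen the set).

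**Figure D1:**
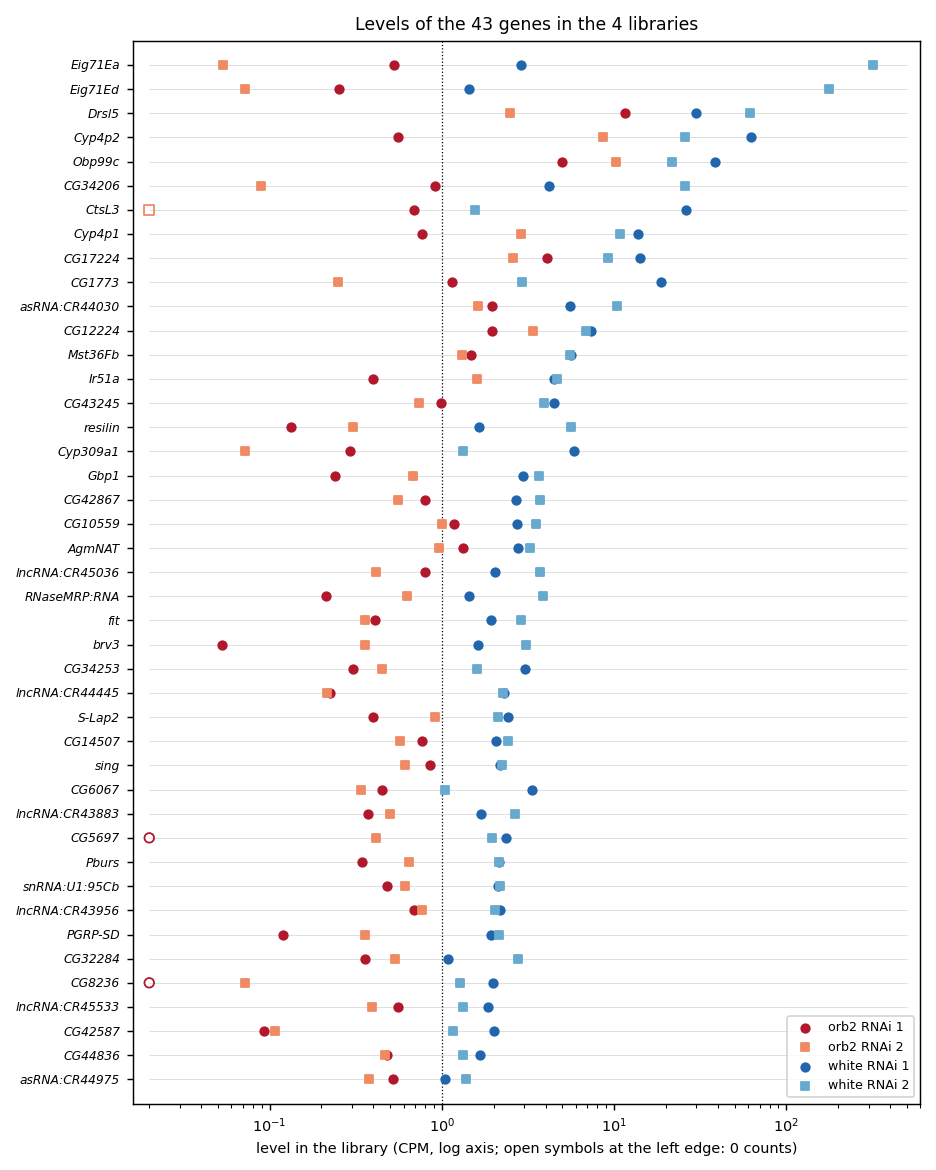
Level of each of the 43 genes (rows, ordered by mean level in the libraries labelled *white* RNAi) in each library, in CPM on a log axis; symbols in shades of red are the replicates labelled *orb2* RNAi and in shades of blue those labelled *white* RNAi, open symbols are 0 counts and the dotted line is 1 CPM. In each row both blue symbols lie right of both red ones because the genes were chosen so, and *Eig71Ea* and *Eig71Ed* have the widest gap between the blue symbols.

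The highest levels belonged to genes that the moulting hormone ecdysone induces at the polytene puff 71E, a cluster known for its activity in the larval salivary gland. *Eig71Ea* (FBgn0004588, BDGP6.54 chromosome 3L:15649126-15649661, minus strand) had 0.530 and 0.0537 CPM under the *orb2* RNAi label, against 2.90 and 317 CPM under the *white* RNAi label. *Eig71Ed* (FBgn0004591, 3L:15652537-15653096, plus strand) had 0.252 and 0.0717 CPM under the *orb2* RNAi label, against 1.43 and 176 CPM under the *white* RNAi label. Their high means thus came from replicate 2 labelled *white* RNAi, where they stood 110 and 123 times above replicate 1 with the same label. The 2 genes lie 2876 bases apart, and their cluster neighbours split. *Eig71Eb*, *Eig71Ec*, *Eig71Ef* and *Eig71Eg* were at 0 to 0.252 CPM in the libraries labelled *orb2* RNAi, against 0 to 0.944 CPM in replicate 1 and 33.6 to 190 CPM in replicate 2 labelled *white* RNAi. *Eig71Ee* went the other way, with 11.1 and 294 CPM under the *orb2* RNAi label, against 5.86 and 7.17 CPM under the *white* RNAi label. The list of salivary gland markers, 8 genes made of 6 glue protein genes, *Eig71Ee* and *ng1*, summed to 139 and 1634 CPM under the *orb2* RNAi label, against 43.7 and 160 CPM under the *white* RNAi label, with *ng1* at 0 in 3 of 4 libraries. Of these 8 genes 4 were higher in both libraries labelled *orb2* RNAi, as were 1969 (19.0%) of the 10379 genes that reached 1 CPM in some library. The reverse, lower in both, held for 991 (9.55%). The part of salivary gland RNA in the levels of *Eig71Ea* and *Eig71Ed* was not tested.

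**Figure D2:**
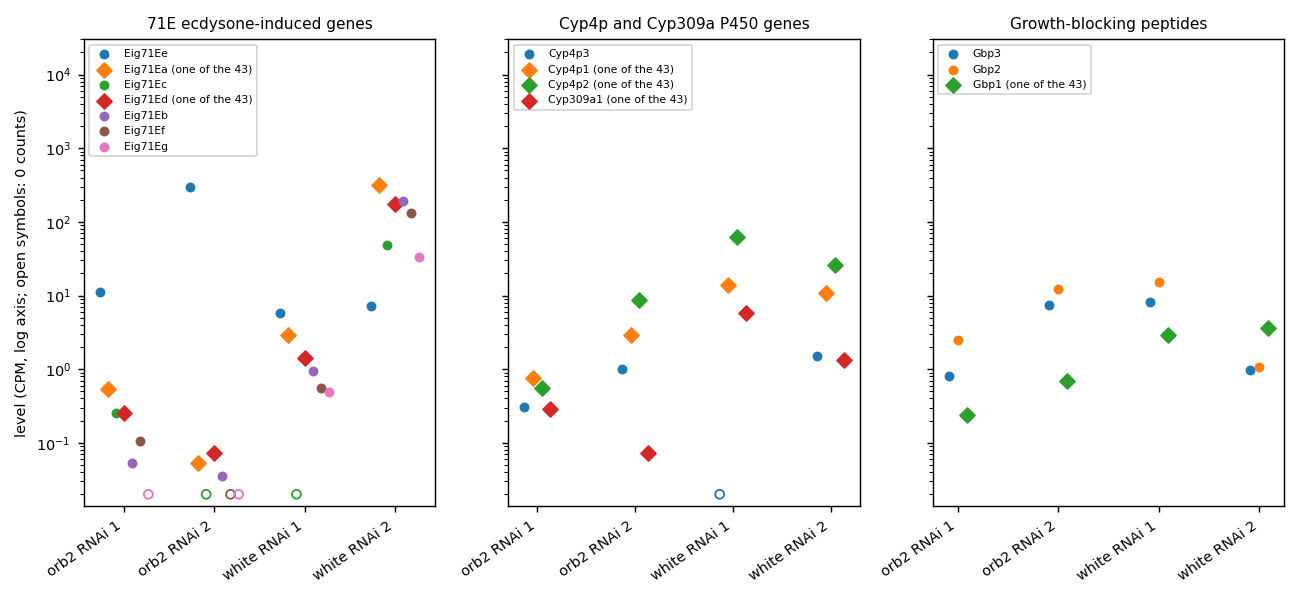
Levels in CPM (log axis) in each library, replicates labelled *orb2* RNAi left of those labelled *white* RNAi, for the 71E ecdysone-induced genes, the Cyp4p and Cyp309a P450 genes and the growth-blocking peptides that reached 1 CPM in a library; diamonds are genes of the 43, circles their relatives and open symbols 0 counts. Apart from *Eig71Ee*, the 71E genes are highest in replicate 2 labelled *white* RNAi, at 33.6 to 317 CPM, while *Gbp2* and *Gbp3* are highest in replicate 1 with that label.

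Cytochrome P450 enzymes, which oxidise hormones, fatty acids and foreign compounds, gave 3 of the 43 genes. *Cyp4p2* had 0.557 and 8.63 CPM under the *orb2* RNAi label, against 61.9 and 25.9 CPM under the *white* RNAi label. *Cyp4p1* starts 210 bases from it on chromosome 2R and had 0.769 and 2.88 CPM under the *orb2* RNAi label, against 13.8 and 10.7 CPM under the *white* RNAi label. The adjacent pair shared an order over the 4 libraries, lowest in replicate 1 labelled *orb2* RNAi and highest in replicate 1 labelled *white* RNAi. The rule fixed all of that order except the order within each label. The third gene of that group, *Cyp4p3*, did not follow, with 0.305 and 1.00 CPM under the *orb2* RNAi label, against 0 and 1.502 CPM under the *white* RNAi label. *Cyp309a1*, on chromosome 2L, had 0.292 and 0.0717 CPM under the *orb2* RNAi label, against 5.83 and 1.33 CPM under the *white* RNAi label. Of 84 annotated P450 genes 56 reached 1 CPM in some library, and both libraries labelled *orb2* RNAi lay below both labelled *white* RNAi in 8 and above both in 10, beside 9.55% and 19.0% of all genes reaching that level. As close copies can share reads, counts of adjacent P450 genes are uncertain.

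Genes of defence and of fat body signalling were a further group. *Drsl5*, a member of the family of the antifungal peptide Drosomycin, had 11.6 and 2.49 CPM under the *orb2* RNAi label, against 29.8 and 61.4 CPM under the *white* RNAi label. *PGRP-SD*, a secreted receptor for bacterial cell wall, had 0.119 and 0.358 CPM under the *orb2* RNAi label, against 1.94 and 2.14 CPM under the *white* RNAi label. *Gbp1*, a growth-blocking peptide that the fat body releases, had 0.239 and 0.681 CPM under the *orb2* RNAi label, against 2.95 and 3.67 CPM under the *white* RNAi label. Their relatives had other patterns. Of 10 peptidoglycan recognition protein genes that reached 1 CPM, *PGRP-SD* was the only one lower in both libraries labelled *orb2* RNAi, and 1 was higher in both (9.55% and 19.0% over all such genes). Replicate 2 labelled *white* RNAi was highest in 4 of them. *PGRP-SB2*, 1 of those, had 0.928 and 0 CPM under the *orb2* RNAi label, against 0.749 and 87.3 CPM under the *white* RNAi label. *Drs* itself had 3.17 and 2.70 CPM under the *orb2* RNAi label, against 2.90 and 7.08 CPM under the *white* RNAi label. For *Gbp2* the values were 2.47 and 12.2 CPM under the *orb2* RNAi label, against 15.1 and 1.07 CPM under the *white* RNAi label, so the groups overlapped. None of the 17 genes of the antimicrobial peptide list, which holds *Drs*, was among the 43, and of the 13 that reached 1 CPM 4 were higher in both libraries labelled *orb2* RNAi (19.0% over all such genes). The fat body list (10 genes) summed to 1311 and 3760 CPM under the *orb2* RNAi label, against 5433 and 933 CPM under the *white* RNAi label, with *Yp1* at 0 in 1 library. Unlike *Gbp1*, it was lowest in replicate 2 labelled *white* RNAi.

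Other secreted proteins included carriers, hormones and cuticle. *Obp99c*, an odorant-binding protein, had 4.99 and 10.3 CPM under the *orb2* RNAi label, against 38.6 and 21.8 CPM under the *white* RNAi label. It was 1 of 18 odorant-binding protein genes that reached 1 CPM, of which 2 were lower and 3 higher in both libraries labelled *orb2* RNAi (9.55% and 19.0% over all such genes). *Pburs* encodes 1 of the subunits of bursicon, the hormone that hardens new cuticle through the receptor Rickets. It had 0.345 and 0.645 CPM under the *orb2* RNAi label, against 2.15 and 2.14 CPM under the *white* RNAi label, the closest agreement between replicates labelled *white* RNAi among the 43 genes (2.14 ± 0.00751 CPM, SD, n = 2). The receptor gene *rk* had 17.5 and 13.0 CPM under the *orb2* RNAi label, against 22.3 and 8.73 CPM under the *white* RNAi label, which overlapped. Of the 3 genes for bursicon subunits and receptor, which all reached 1 CPM, *Pburs* alone was lower in both libraries labelled *orb2* RNAi. None was higher in both, so the gene for the other subunit overlapped as well. *fit*, a satiety signal with higher expression in females, had 0.411 and 0.358 CPM under the *orb2* RNAi label, against 1.92 and 2.86 CPM under the *white* RNAi label. *resilin*, the elastic protein of cuticle, had 0.133 and 0.305 CPM under the *orb2* RNAi label, against 1.64 and 5.61 CPM under the *white* RNAi label. Of 54 cuticle family genes that reached 1 CPM, 2 were lower and 18 higher in both libraries labelled *orb2* RNAi, beside the same 9.55% and 19.0%. The list of 13 cuticle markers summed to 494 and 632 CPM under the *orb2* RNAi label, against 61.7 and 108 CPM under the *white* RNAi label, with 0 to 5 of its genes at 0 in a library.

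Proteases and peptidases contributed 4 genes, and how many such genes could meet the rule is not given here. *CtsL3*, a cathepsin L family protease, had 0.690 and 0 CPM under the *orb2* RNAi label, against 26.1 and 1.56 CPM under the *white* RNAi label. *CG1773*, annotated as serine protease SP74, had 1.14 and 0.251 CPM under the *orb2* RNAi label, against 18.7 and 2.92 CPM under the *white* RNAi label. *CG6067*, annotated as the serine protease homolog SPH254, had 0.451 and 0.340 CPM under the *orb2* RNAi label, against 3.32 and 1.04 CPM under the *white* RNAi label. All 3 were highest in replicate 1 labelled *white* RNAi, the opposite of *Eig71Ea* and *Eig71Ed*. The list of 10 gut markers, which holds digestive proteases, summed to 0.995 and 3.39 CPM under the *orb2* RNAi label, against 9.95 and 0.433 CPM under the *white* RNAi label, with 2 to 8 of its genes at 0 in a library. Its sum was highest in replicate 1 labelled *white* RNAi, where *Jon65Aiii* (6.72 CPM) and *LysB* (2.05 CPM) gave most of it. Those were the only 2 of the 10 that reached 1 CPM in some library, and 5 were at 0 in that replicate. The part of gut RNA in the protease levels was not tested. *CtsL1*, the most abundant cathepsin L gene, had 279 and 276 CPM under the *orb2* RNAi label, against 291 and 319 CPM under the *white* RNAi label. *S-Lap2*, a leucyl aminopeptidase of sperm, had 0.398 and 0.914 CPM under the *orb2* RNAi label, against 2.41 and 2.11 CPM under the *white* RNAi label. Its neighbour *S-Lap1* had 2.97 and 1.81 CPM under the *orb2* RNAi label, against 1.07 and 2.51 CPM under the *white* RNAi label, which overlapped.

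A few of the 43 genes have known functions in sensory cells, muscle, testis or amine metabolism, or belong to families with such functions. *Ir51a*, of the ionotropic receptor family and annotated as a pseudogene, had 0.398 and 1.59 CPM under the *orb2* RNAi label, against 4.49 and 4.68 CPM under the *white* RNAi label. *brv3*, a brivido channel gene of the TRP class, had 0.0530 and 0.358 CPM under the *orb2* RNAi label, against 1.63 and 3.06 CPM under the *white* RNAi label. In 186 gustatory, odorant and ionotropic receptor genes, 26 reached 1 CPM in some library and *Ir51a* was the only one among the 43. Of the 26, 4 were lower and 1 higher in both libraries labelled *orb2* RNAi (9.55% and 19.0% over all such genes). *sing*, a membrane protein of myoblast fusion, had 0.849 and 0.609 CPM under the *orb2* RNAi label, against 2.18 and 2.22 CPM under the *white* RNAi label. Muscle markers were higher in both libraries labelled *orb2* RNAi in 13 of 14 cases, beside 19.0% of all genes reaching 1 CPM, with sums of 1441 and 1298 CPM there, against 695 and 905 CPM under the *white* RNAi label. *Mst36Fb*, a male-specific transcript, had 1.49 and 1.31 CPM under the *orb2* RNAi label, against 5.65 and 5.52 CPM under the *white* RNAi label. Its neighbour *Mst36Fa* had 1.14 and 1.36 CPM under the *orb2* RNAi label, against 1.17 and 2.37 CPM under the *white* RNAi label. *AgmNAT*, the agmatine N-acetyltransferase, had 1.33 and 0.967 CPM under the *orb2* RNAi label, against 2.75 and 3.24 CPM under the *white* RNAi label.

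Noncoding RNAs were 9 of the 43, namely 8 annotated as noncoding RNA and the U1 gene. The 8 were 18.6% of the 43, beside 1.83% of the 8689 genes with that annotation, and 76.7% of the 43 were protein-coding, beside 96.7%. Among the 121 genes of the mirror rule, 9 (7.44%) had that noncoding annotation and 88.4% were protein-coding, so a raised noncoding share was not particular to the 43. *RNaseMRP:RNA*, the RNA of the enzyme that processes ribosomal RNA, had 0.212 and 0.627 CPM under the *orb2* RNAi label, against 1.43 and 3.84 CPM under the *white* RNAi label. *snRNA:U1:95Cb*, a copy of the U1 RNA that recognises 5′ splice sites, had 0.477 and 0.609 CPM under the *orb2* RNAi label, against 2.12 and 2.17 CPM under the *white* RNAi label. Neither RNA normally carries a poly(A) tail, while the libraries were made from polyadenylated RNA. The U1 copies are nearly identical, so their split is uncertain, and all 5 copies together summed to 2.04 and 2.24 CPM under the *orb2* RNAi label, against 4.25 and 7.45 CPM under the *white* RNAi label. The related *RNaseP:RNA* had 3.57 and 5.48 CPM under the *orb2* RNAi label, against 5.09 and 3.76 CPM under the *white* RNAi label, which overlapped.

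Among long noncoding RNAs, *lncRNA:CR44445* had 0.225 and 0.215 CPM under the *orb2* RNAi label, against 2.28 and 2.25 CPM under the *white* RNAi label. Its lower value labelled *white* RNAi was 9.997 times its higher value labelled *orb2* RNAi, with a 95% counting interval of 5.86 to 18.0. *lncRNA:CR45036*, *lncRNA:CR43883*, *lncRNA:CR43956* and *lncRNA:CR45533* were at 0.371 to 0.796 CPM under the *orb2* RNAi label, against 1.33 to 3.73 CPM under the *white* RNAi label. *lncRNA:CR45036* and both antisense RNAs overlap a gene on the other strand and were counted without a known strand setting, so reads of the partners cannot be told apart. *lncRNA:CR45036* shares 16.7% of its exon bases with *CG6163*, which had 27.0 and 32.7 CPM under the *orb2* RNAi label, against 19.3 and 30.3 CPM under the *white* RNAi label. *asRNA:CR44030*, on chromosome 4, had 1.95 and 1.63 CPM under the *orb2* RNAi label, against 5.53 and 10.4 CPM under the *white* RNAi label. It shares 39.7% of its exon bases with *fuss*, which had 9.80 and 9.64 CPM under the *orb2* RNAi label, against 14.5 and 11.7 CPM under the *white* RNAi label. *asRNA:CR44975* had 0.517 and 0.376 CPM under the *orb2* RNAi label, against 1.04 and 1.39 CPM under the *white* RNAi label, and shares 34.2% of its exon bases with *grp*. The far more abundant *grp* had 334 and 339 CPM under the *orb2* RNAi label, against 330 and 279 CPM under the *white* RNAi label.

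Genes named here only by CG numbers made up the rest. The most abundant, *CG34206*, had 0.915 and 0.0896 CPM under the *orb2* RNAi label, against 4.17 and 25.9 CPM under the *white* RNAi label. *CG17224* had 4.06 and 2.58 CPM under the *orb2* RNAi label, against 14.1 and 9.16 CPM under the *white* RNAi label. *CG8236* had the largest ratio of the rule, 17.7, from 0 and 4 counts under the *orb2* RNAi label, against 122 and 44 counts under the *white* RNAi label, and its counting interval was 6.46 to 68.0. *CG42587* came next with 10.8 (4.53 to 31.0), at 0.0928 and 0.107 CPM under the *orb2* RNAi label, against 2.02 and 1.16 CPM under the *white* RNAi label. For *CG5697* the counts were 0 and 23 under the *orb2* RNAi label, against 144 and 68 under the *white* RNAi label. The remaining 8 protein-coding genes, *CG12224*, *CG43245*, *CG42867*, *CG10559*, *CG34253*, *CG14507*, *CG32284* and *CG44836*, were at 0.305 to 3.37 CPM under the *orb2* RNAi label, against 1.09 to 7.37 CPM under the *white* RNAi label.

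The ratio of the lower value labelled *white* RNAi to the higher value labelled *orb2* RNAi had a median of 2.995 and was 3 or more in 21 genes and 5 or more in 7. Its exact 95% counting interval, which covers counting error only and is taken on the values that chose the genes, lay above the limit of 2 in 25 of the 43 genes and reached below it in the rest. If reads were counted more than once, these intervals are too narrow. Just inside the limit were *asRNA:CR44975* at 2.01, *CG32284* at 2.03 and *CG12224* at 2.04. *CG31178* at 1.95, *CG13775* at 1.90 and *lncRNA:CR46489* at 1.87 lay just outside it. *Eig71Eb* passed the fold limit and missed the level limit, at 0.944 CPM in replicate 1 labelled *white* RNAi.

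Under the *orb2* RNAi label, replicates of these genes differed from each other more than those of most genes did. Under the *white* RNAi label their median difference was only slightly larger, and both are given without a test. The median absolute log2 ratio of replicate 2 to replicate 1, at CPM + 0.1, was 0.744 for the libraries labelled *orb2* RNAi and 0.551 for those labelled *white* RNAi, beside 0.176 and 0.492 over the 8689 genes. It was over 1 in 17 of the 43 genes (39.5%, background 4.35%) in the libraries labelled *orb2* RNAi and in 12 (27.9%, background 17.9%) in those labelled *white* RNAi. Beside these ratios, 30 of the 43 genes averaged under 5 CPM in the libraries labelled *white* RNAi. The 8689 genes were not matched for level, with a median of 44.1 CPM in those libraries, beside 2.88 CPM for the 43. The part of low counts in these ratios was not tested. The wide ratios did not fall on a single library. Replicate 2 labelled *white* RNAi was highest in 22 genes and replicate 1 in 21, and replicate 2 labelled *orb2* RNAi was lowest in 23 and replicate 1 in 20. The libraries labelled *white* RNAi lay within 1.5 times of each other in 22 genes. They were over 5 times apart in *Eig71Ea*, *Eig71Ed* and *CG34206*, which were highest in replicate 2, and in *CtsL3* and *CG1773*, which were highest in replicate 1.

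**Figure D3:**
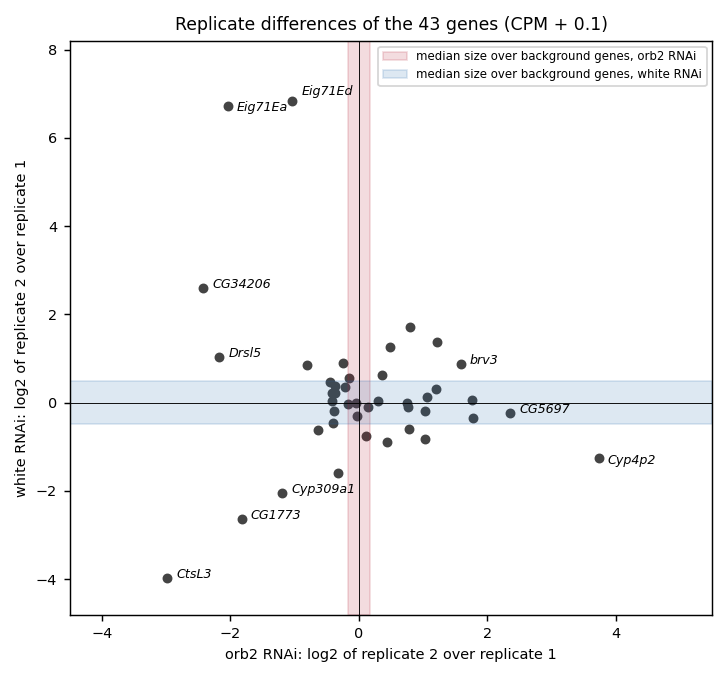
Log2 ratio of replicate 2 to replicate 1 at CPM + 0.1 for each of the 43 genes (points), in the libraries labelled *orb2* RNAi (horizontal) and in those labelled *white* RNAi (vertical); shaded bands reach the median absolute ratio of the 8689 genes, 0.176 and 0.492. *Eig71Ea* and *Eig71Ed* lie at the top left, *CtsL3* at the bottom left and *Cyp4p2* at the right.

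The 43 genes were low and short beside the others. Their median level in the libraries labelled *white* RNAi was 2.88 CPM, beside 44.1 CPM over the 8689 genes, and their median exon length was 1105 bases, beside 2269. Per kilobase of exon, the median level was 3.93 CPM, beside 18.8 CPM. On that scale *Eig71Ea* was highest (389 CPM per kilobase), then *Eig71Ed* (214) and *Drsl5* (125), and *lncRNA:CR45533* was lowest (0.336). Under the *white* RNAi label, where their rule sets them low, the 121 genes of the mirror rule had medians of 0.722 CPM and 0.351 CPM per kilobase. Their median exon length was 1805.5 bases. Low levels and short exons beside the 8689 genes were thus not particular to the 43.

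By position, 6 of the 43 genes lay on 2L, 9 on 2R, 11 on 3L, 10 on 3R, 5 on X and 2 on chromosome 4. Chromosome 4 held 4.65% of them, beside 0.990% of the 8689 genes, and those were *asRNA:CR44030* and *lncRNA:CR43956*. Apart from the Cyp4p and Eig71E pairs, the closest pair, *RNaseMRP:RNA* and *snRNA:U1:95Cb*, lay 97441 bases apart. Of 45 nearest protein-coding neighbours with at least 1 CPM in every library, 3 (6.67%) were lower in both libraries labelled *orb2* RNAi, beside 766 of 8524 genes (8.99%), a share near the background, and their median log2 difference was 0.16, beside 0.09. Exon bases were shared with another gene in 14 of the 43, with the largest shares in *sing* and *CG34253*. *sing* shares 59.9% with *Axs* on the other strand, at 17.6 and 18.2 CPM under the *orb2* RNAi label, against 18.6 and 7.02 CPM under the *white* RNAi label. *CG34253* shares 59.5% with *lncRNA:CR32194* on its own strand, so both of these counts are uncertain.

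**Figure D4:**
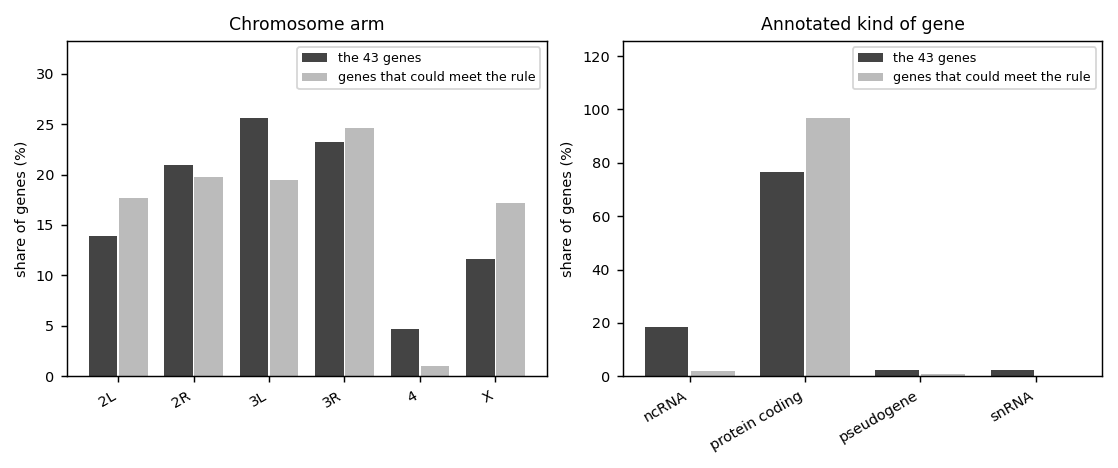
Share of genes (%) on each chromosome arm (left) and of each annotated kind (right), for the 43 genes (dark bars) and the 8689 genes that could meet the rule (light bars). Genes annotated as noncoding RNA (ncRNA, without the U1 gene) were 18.6% of the 43 genes and 1.83% of the 8689, and chromosome 4 held 4.65% and 0.990%. Among the 121 genes of the mirror rule, which are not drawn, these shares were 7.44% and 0.826%.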

How the data were processed

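Polyadenylated RNA of 4 pools of brains was sequenced. The authors trimmed reads with TrimGalore!, aligned them to BDGP6.32 with HISAT2 and ran featureCounts. The deposited files give its counts unchanged, with no scaling. Strand handling is not given in the sources used here: the labels and the paper name different TruSeq kits. All features went through edgeR 4.0.16 in R 4.3.3 (TMM, filterByExpr, quasi-likelihood test) and DESeq2 1.42.0 without shrinkage. A call needed a Benjamini-Hochberg adjusted p below 0.05 and a log2 fold change beyond 0.5 in size. The edgeR step was tested on simulated data with the same spread for every gene and no library standing apart. These data differ in both, so that test does not show what edgeR could detect here. Ensembl release 115 (BDGP6.54) gave positions and exon lengths for 99.6% of the genes, and is a later annotation of the same assembly. Counting intervals are exact binomial and treat every count as an independent event. Library totals averaged 56.8 M counts, more than the paper's average number of reads per sample, of which it aligned only a part. Reads may therefore have been counted more than once, which would make the intervals too narrow, and this was not tested. The members and lists were chosen with earlier results of these data known. Genes to be named were the 12 with the highest level, those in the lists, adjacent genes and those at the limits, and the other members and all relatives were added after their values were seen. P-values measure only the spread between 2 pools per group. Alternatives were other scalings, filters, limits, a replicate block and each library left out.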

Additional observations from a re-analysis of the deposited data

How the results depend on the processing

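The number of genes meeting the rule was 44 with TMM-scaled totals (42 of the 43 among them), 45 with DESeq2 size factors and 45 with totals over FlyBase genes only, both holding all 43. It was 88 with a level limit of 0.5 CPM and 25 with 2 CPM, and 85 at 1.5 times and 21 at 3 times. With 1 library left out it was 110 to 626. Features called lower were 0 with edgeR under other scalings and filters and at an adjusted p under 0.01, 40 with DESeq2, and 0 to 51 with 1 library left out, with 45 without replicate 1 and 51 without replicate 2 labelled *orb2* RNAi, of which 6 and 7 were among the 43 genes. Features called higher were 89 with DESeq2, and 0 to 91 with 1 library left out, with 91 without replicate 1 and 28 without replicate 2 labelled *orb2* RNAi. The cause was not tested. With a single library left in a group, that library was assumed to vary like the others. The log2 fold changes of the 43 genes, *orb2*, *w*, *CG31178*, *CG13775* and *lncRNA:CR46489* kept their sign under each alternative in which they were tested, which the choice of the 43 partly fixes, and relatives and list genes were not run. With at least 10 counts in every library 33 of the 43 were tested.

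A replicate block called 11 features lower, *CtsL3* and *CG1773* among them, and 62 higher. Deviations of same-numbered libraries correlated at 0.248 over 8524 genes, but the labels give the number no shared origin and there are only 2 pairs. The 36 counts of the lowest value labelled *white* RNAi, and 0 counts in a library labelled *orb2* RNAi for 3 genes, limit the ratios of the least abundant genes. Each test rests on 2 samples per group.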

Other observations

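The same limits applied to annotated transposon insertions, which are counted as separate features and were not among the genes, were met by 5 of 5416, beside 43 of all 17869 genes. How many of the 5416 insertions reached the level limit is not given here. The highest, FBti0019148, had 141 and 83.8 CPM under the *orb2* RNAi label, against 316 and 1715 CPM under the *white* RNAi label. FBti0019596 had 14.2 and 13.1 CPM under the *orb2* RNAi label, against 29.3 and 144 CPM under the *white* RNAi label. Both were highest in replicate 2 labelled *white* RNAi, as *Eig71Ea* and *Eig71Ed* were. Copies of a transposon share sequence, so counts of single insertions are uncertain.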
